A study of Danio rerio with 6 samples.

Results

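The POU genes of class II and class III were followed in RNA-seq of whole zebrafish embryos at 30 hpf. They were taken as every row of the expression table whose gene name begins with pou2f or pou3f, which gave 9 of 31953 genes under 8 names. Class II holds 4 of them (*pou2f1b*, *pou2f3* and 2 genes that both carry the name *pou2f2a*), and class III holds 5 (*pou3f1*, *pou3f2a*, *pou3f2b*, *pou3f3a* and *pou3f3b*). One *pou2f2a* gene lies on chromosome 19 and the other on chromosome 16. A table of gene names lists the second as *pou2f2b*, and the 2 are kept apart here by chromosome. The set was chosen by name around the chromosome 19 *pou2f2a*, which had been selected on its lower measured counts in these same crispant libraries. The differences between the groups are therefore given for all 9 genes as a description, and the calls of fits across all genes, which are printed beside the share of all genes called, are no independent test of them.

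The embryos were of 2 kinds with 3 libraries each. The *dancr* del F0 crispants had been injected at the single cell stage with Cas9 and a pool of 4 guide RNAs against the promoter of the lncRNA gene *dancr*. Mock control embryos had received an injection mixture without the *dancr* targeting crRNA. F0 crispants are mosaic, so each embryo holds cells with different deletions. About 30 embryos were used in each group, without a statement of how many went into each library. The crispants were embryos of Class I and Class II, the most severe grades of the study's scale, in which the trunk or the tail is poorly formed and necrosis is prominent. All embryos were of the wild type AB strain as far as the study's methods state, and the labels give no sex or clutch for the libraries.

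POU proteins are transcription factors that bind DNA through a POU-specific domain and a POU homeodomain. Many of them recognise the octamer element. In mammals the class II factor Pou2f1 is made in most cell types, Pou2f2 is best known from B cells and is also made in the nervous system, and Pou2f3 is known from epidermis and chemosensory tuft cells. The class III factors are known above all from the developing nervous system. In the mouse Pou3f1 acts in Schwann cells as they begin to myelinate, Pou3f2 acts in neuroendocrine neurons of the hypothalamus, and Pou3f3 acts in the forebrain and the kidney. Zebrafish keep 2 copies, a and b, of both *pou3f2* and *pou3f3*.

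Total counts per library ran from 33841805 to 40515803. Expression is given as CPM, the usual read count scaled to library size, here with each library total adjusted by edgeR's TMM factor. Mock control replicate 3 stood apart from the other 5 libraries, with a TMM factor of 0.749 against 0.988 to 1.14. Many of the values that rest on it, though not all, are also given without it. Reads of the snoRNA *SNORA26*, which lies in the *dancr* locus and serves as a check of the labels, numbered 22, 8 and 16 in the mock control libraries and 0, 7 and 4 in the crispants. By a two-sided exact permutation test of CPM this gave p = 0.1, which is the lowest value that 3 libraries against 3 allow. A second *SNORA26* feature of the locus had 0 reads in all libraries. *SNORA27* had 1 read in crispant replicate 1 and 0 elsewhere, so these features cannot serve as a check.

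The 5 class III genes share a feature of structure that the class II genes lack. On GRCz10, *pou3f1* runs from 33639086 to 33641955 on chromosome 16, a span of 2870 bases that equals its annotated transcribed length, so that its gene model holds no intron. The same equality held for *pou3f2b* (chromosome 16, 32605791 to 32609062), *pou3f2a* (chromosome 4, 5733163 to 5735887), *pou3f3a* (chromosome 9, 6680609 to 6683681) and *pou3f3b* (chromosome 6, 14823242 to 14826420). Of the 20812 genes tested, 711 had a model of this kind. The chromosome 19 *pou2f2a* (ENSDARG00000036816) spans 89420 bases, from 6294649 to 6384068 on the minus strand, for an annotated length of 6390 bases. The chromosome 16 *pou2f2a* (ENSDARG00000019658) lies from 11028334 to 11097250, *pou2f1b* from 34510054 to 34543432 on chromosome 9, and *pou2f3* from 57880518 to 57932953 on chromosome 5.

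The chromosome 19 *pou2f2a* was lower in every crispant library than in every mock control library. It was measured at 79.3, 30.3 and 67.5 CPM in mock control replicates 1, 2 and 3, and at 20.7, 19.8 and 24.9 CPM in crispant replicates 1, 2 and 3. The mock control libraries spread widely, with replicate 1 at 2.62 times the level of replicate 2, and replicate 2 lay close to the crispants. Mean levels were 59.0 ± 25.6 and 21.8 ± 2.74 CPM in mock control embryos and crispants respectively (SD, n = 3 each), so that crispants held 36.9% of the mock control level. The log2 fold change came to -1.44, standard error 0.35, and to -1.31, standard error 0.33, without mock control replicate 3. In bulk RNA of whole embryos, fewer cells that make a transcript and less transcript per cell cannot be told apart.

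The chromosome 16 *pou2f2a* was expressed at a lower level and its groups overlapped. Its values were 7.51, 3.81 and 2.49 CPM in mock control embryos and 2.85, 2.02 and 3.52 CPM in crispants. Mock control replicate 1 was the highest of the 6 libraries for both genes named *pou2f2a*, but mock control replicate 3 was high for the chromosome 19 gene and low for the chromosome 16 gene. The fitted difference was -0.72 on the log2 scale (standard error 0.47). It was -0.17 without mock control replicate 1 and -0.99 without mock control replicate 3, where the groups were apart.

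*pou2f1b*, the orthologue of the widely expressed mammalian Pou2f1, had a single library far from the rest. It was at 85.7, 68.7 and 10.8 CPM in mock control replicates 1, 2 and 3, and at 55.3, 37.1 and 46.7 CPM in crispants. Mock control replicate 3 thus held 14.0% of the mean level of the other mock control libraries, and 3.69% of all genes tested had a ratio that low or lower in this library. The size and the direction of the difference for *pou2f1b* changed with the library left out. With all 6 libraries the log2 fold change was -0.25 (standard error 0.60), without mock control replicate 3 it was -0.72 (standard error 0.20), and without mock control replicate 1 it was 0.22. The mean of its log2 CPM values was higher in crispants by 0.20, so that this gene has no settled direction.

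*pou2f3*, known in mammals from epidermis and tuft cells, was with the chromosome 16 *pou2f2a* the least expressed of the 9 genes. Mock control embryos gave 144, 175 and 149 counts of this gene and crispants 55, 168 and 143, or 3.99, 4.56 and 5.22 CPM against 1.49, 4.1996 and 3.47 CPM. Crispant replicate 1 was the lowest library, and the highest crispant overlapped the mock control range. Its log2 fold change of -0.59 (standard error 0.43) became -0.26 without crispant replicate 1.

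Among the class III genes, *pou3f1* showed the largest difference between the groups. It was measured at 186.9, 138.5 and 188.6 CPM in mock control embryos and at 112.5, 74.8 and 88.6 CPM in crispants. In CPM every crispant was below every mock control library, and the group levels were 171.3 ± 28.4 and 91.9 ± 19.1 CPM (SD, n = 3 each). This was a log2 fold change of -0.90 for *pou3f1* (standard error 0.23). As for the chromosome 19 *pou2f2a*, mock control replicate 2 was the lowest of the mock control libraries in CPM. The TPM scale divides counts by gene length and takes no TMM factor. On it the lowest mock control library, replicate 3, was at 85.1 and the highest crispant at 86.3, so the groups of *pou3f1* overlapped. Only that mock control library lay below the highest crispant. Those of the chromosome 19 *pou2f2a* were only narrowly apart on the TPM scale. Its lowest mock control library was at 10.08 and its highest crispant at 9.49.

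In CPM, *pou3f3b* was the only other class III gene with groups that did not overlap in the 6 libraries. On the TPM scale its lowest mock control library, replicate 3, was at 86.5 and its highest crispant at 101.6, an overlap. Only that mock control library overlapped the crispants of *pou3f3b*. Its values were 177.0, 190.2 and 212.4 CPM in mock control embryos and 139.1, 126.5 and 132.7 CPM in crispants. On the log2 scale it varied least within the groups among the 9 genes. Means were 193.2 ± 17.9 and 132.8 ± 6.33 CPM (SD, n = 3 each). The fitted difference for *pou3f3b* was -0.54 on the log2 scale (standard error 0.18).

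Its paralogue *pou3f3a* differed less. It was at 58.0, 78.3 and 77.0 CPM in mock control embryos and 56.1, 63.9 and 53.6 CPM in crispants, and mock control replicate 1 fell within the crispant range. The log2 fold change of -0.30 had a standard error of 0.20.

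The *pou3f2* copies, orthologues of the mouse hypothalamic factor Pou3f2, both had overlapping groups. *pou3f2b* was at 99.5, 97.9 and 64.1 CPM in mock control embryos and at 78.6, 67.1 and 65.1 CPM in crispants, with mock control replicate 3 as the lowest of all 6 libraries. *pou3f2a* was at 20.5, 30.3 and 17.7 CPM in mock control embryos and at 17.5, 18.3 and 16.6 CPM in crispants. The log2 fold change of *pou3f2b* was -0.31, going to -0.48 without mock control replicate 3 and to -0.21 without mock control replicate 1. That of *pou3f2a* was -0.39, going to -0.53 without mock control replicate 3 and to -0.13 without mock control replicate 2. Both genes had groups apart once mock control replicate 3 was left out, and *pou3f2a* also once crispant replicate 2 was.

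**Figure D1:**
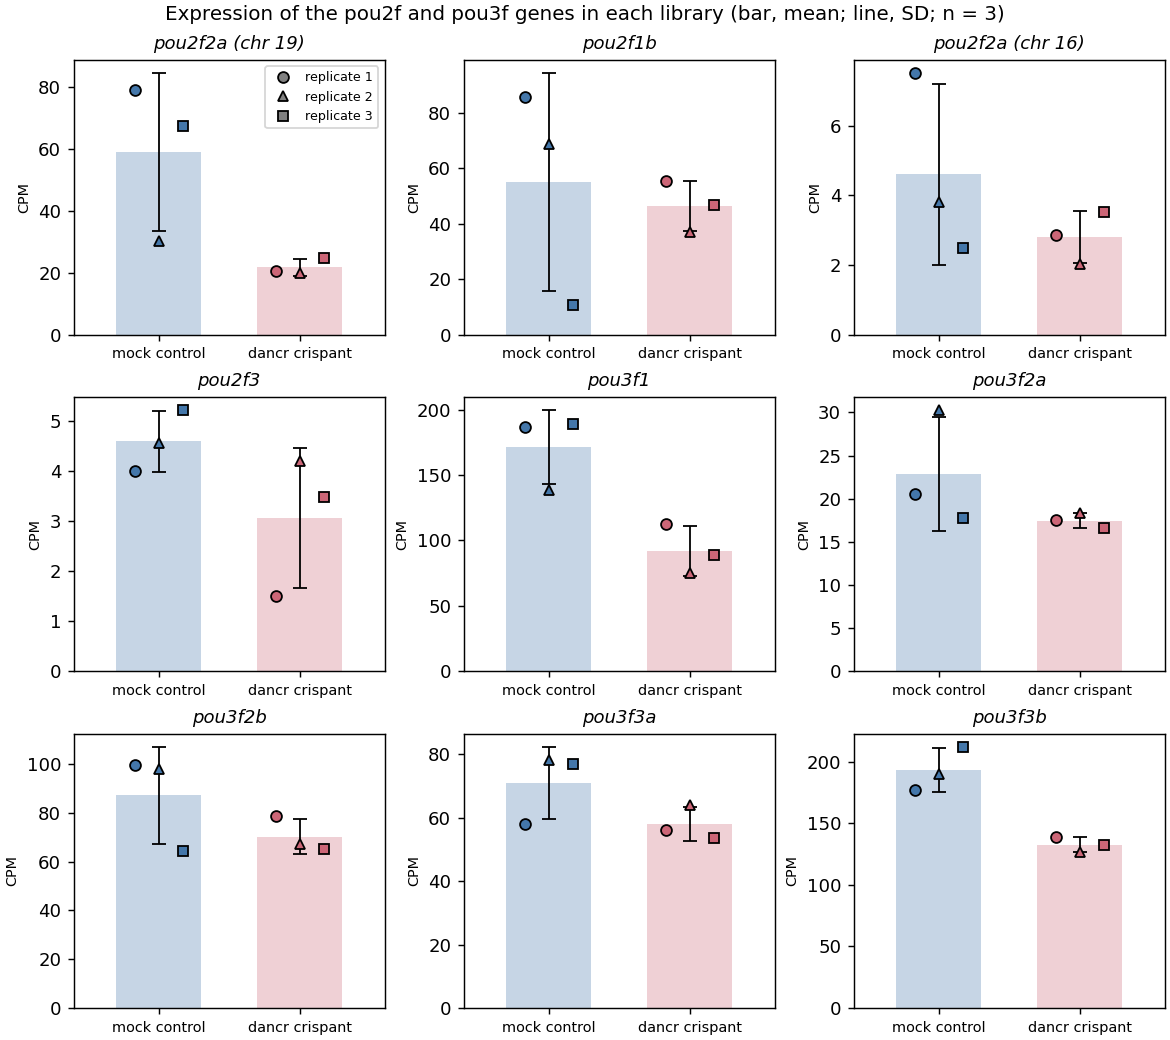
CPM (vertical axis, from 0) of the 9 POU genes in mock control and *dancr* crispant embryos; points are libraries with a shape for each replicate number, bars are group means and lines are SDs (n = 3). The groups are apart for *pou2f2a* of chromosome 19, *pou3f1* and *pou3f3b*, and mock control replicate 3 lies at 10.8 CPM for *pou2f1b*, far below the other mock control libraries.

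All 9 genes passed edgeR's filter on low counts and had a log2 fold change below 0, as did 54.5% of the 20812 genes tested, whose median was -0.04. For *pou2f1b* this sign changed with the setting, as described above. A gene was called where its Benjamini-Hochberg adjusted p reached 0.05 or less and its log2 fold change was 1 or more in size. By the quasi-likelihood test of edgeR, 0 of the 9 genes and 0 of all genes tested (0%) were called, while 1142 of all genes (5.49%) had an unadjusted p below 0.05. DESeq2 called 1 of the 9, the chromosome 19 *pou2f2a*, as lower in crispants, and 164 of 21766 genes overall (0.753%), of which 44 were lower (0.202%). In CPM, groups did not overlap, with lower values in crispants, for 3 of the 9 genes and for 5.44% of all genes tested. No POU gene of the 9 had groups apart with higher values in crispants, which 6.5% of all genes had (11.9% in either direction). Since *pou2f2a* was chosen for this contrast, these shares are printed as a description only.

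Each library was then left out of the fit. The log2 fold change of the chromosome 19 *pou2f2a* stayed between -1.75, without mock control replicate 2, and -1.17, without mock control replicate 1. For *pou3f1* the range was -1.07 to -0.74, and for *pou3f3b* it was -0.60 to -0.45. Without mock control replicate 3 the groups did not overlap for 7 of the 9 genes, all lower in crispants, against 15.2% of all genes in the same libraries, and *pou2f3* and *pou3f3a* were the exceptions. In that set of 5 libraries edgeR called 0 of the 9 and 20 of all genes (0.0935%), 1 of them lower in crispants (0.00468%). The count of POU genes with groups apart was 6 when crispant replicate 2 was dropped (9.43% of all genes) and 5 when mock control replicate 1 was dropped (9.93%). It was 3 when mock control replicate 2, crispant replicate 1 or crispant replicate 3 was dropped, against 10.4%, 8.21% and 9.04% of all genes.

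**Figure D2:**
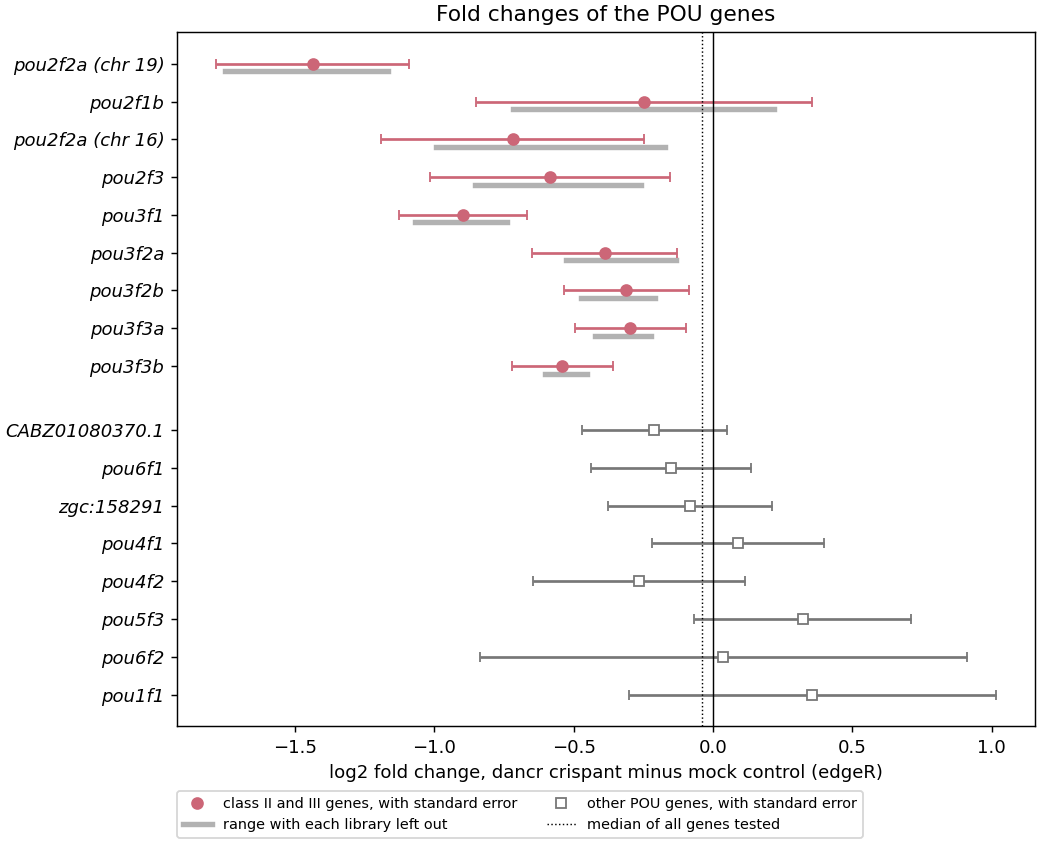
Log2 fold change (horizontal axis, crispant minus mock control) of the class II and III genes and of the other POU features tested, with standard errors; grey bars are the range with each library left out, and the dotted line is the median of all genes tested, -0.04. The chromosome 19 *pou2f2a* at -1.44 and *pou3f1* at -0.90 lie farthest from 0, and of the 9 genes only *pou2f1b* has a left-out range that crosses 0.

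Levels were compared between genes on the authors' FPKM scale, which divides counts by gene length. In mock control embryos *pou3f3b* and *pou3f1* were the most expressed of the 9, at 59.9 ± 5.03 and 58.8 ± 9.39 FPKM (SD, n = 3 each), with overlapping ranges. *pou3f2b* and *pou3f3a* followed at 26.3 ± 6.24 and 22.8 ± 3.60 FPKM, again with overlapping ranges and apart from the pair above. The levels of *pou2f1b* (10.01 ± 7.16 FPKM), the chromosome 19 *pou2f2a* (9.09 ± 3.92 FPKM) and *pou3f2a* (8.27 ± 2.46 FPKM) could not be ordered beyond their spread. *pou2f3* and the chromosome 16 *pou2f2a* were last, at 1.72 ± 0.216 and 1.51 ± 0.858 FPKM, and they overlapped too.

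In crispants the order of mean FPKM was the same except at a single place. The chromosome 19 *pou2f2a*, at 3.36 ± 0.408 FPKM (SD, n = 3), came after *pou3f2a*, at 6.31 ± 0.333 FPKM, and their ranges did not overlap. *pou3f3b* and *pou3f1*, which overlapped in mock control embryos, were apart in crispants, at 41.2 ± 2.02 and 31.6 ± 6.62 FPKM. On a TPM scale their ranges overlapped in both groups. Within each crispant library *pou3f3b* was above *pou3f1*, an order that the scaling of a library does not change. In mock control replicate 1 *pou3f1* was the higher. The order of the means was the same on the FPKM, CPM per kb and TPM scales.

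**Figure D3:**
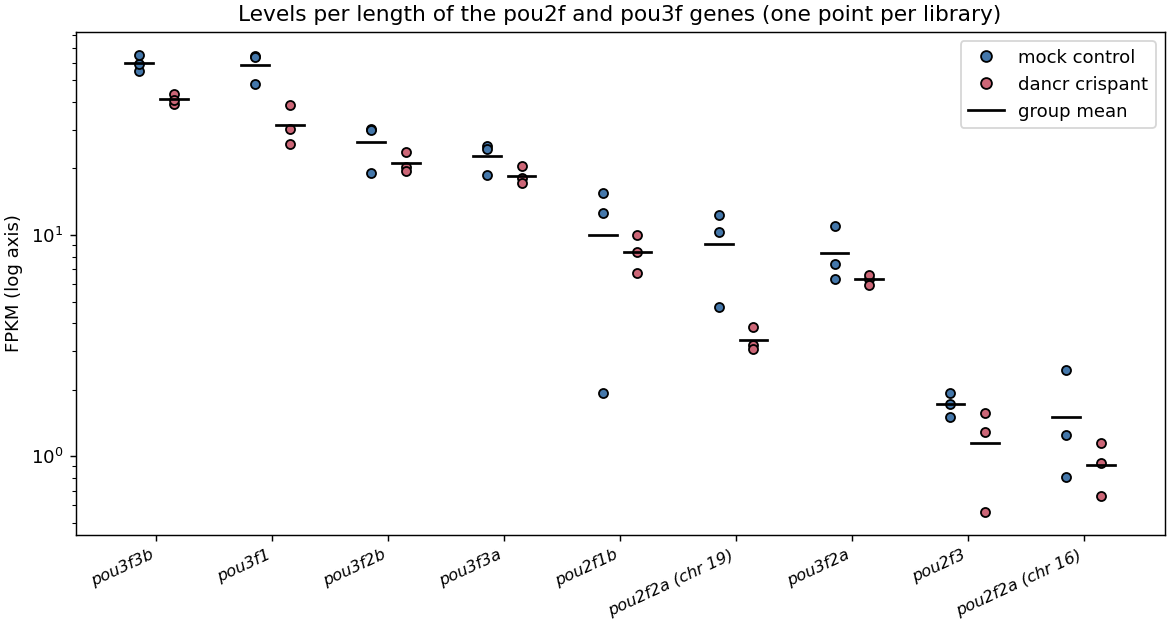
FPKM (vertical log axis) of the 9 POU genes in order of their mock control mean, 1 point per library with group means as lines. *pou3f3b* and *pou3f1* are near 59.9 and 58.8 FPKM in mock control embryos, and the chromosome 19 *pou2f2a* drops below *pou3f2a* in crispants.

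Summed over the 5 class III genes, FPKM was 175.6, 173.5 and 178.9 in mock control embryos and 130.2, 112.4 and 113.8 in crispants. On this FPKM scale the mock control libraries lay within a narrow band, and the crispant mean was 67.5% of theirs. On the TPM scale mock control libraries spread more widely, from 85.1 to 150.1 for *pou3f1* and from 86.5 to 128.4 for *pou3f3b*. Crispants reached 86.3 and 101.6 there, so the groups of both genes overlapped, through mock control replicate 3 alone. *pou3f1* made up 36.7%, 27.6% and 35.8% of the class III sum in mock control embryos and 29.8%, 22.9% and 26.6% in crispants, ranges that overlapped. The share of *pou3f3b* was 31.3% to 36.4% in mock control embryos and 33.2% to 36.0% in crispants. The sum of the 4 *pou2f* genes was 31.8, 20.2 and 14.96 FPKM in mock control embryos and 14.74, 12.03 and 14.68 FPKM in crispants. Mock control replicate 3 lay just above the highest crispant. This sum leaves out the POU2F1-like feature *CABZ01080370.1*, given at the end, so it does not settle the whole class.

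Ratios of counts within a library do not depend on the scaling between libraries. *pou3f2b* had 4.86, 3.23 and 3.62 times the counts of *pou3f2a* in mock control embryos and 4.50, 3.67 and 3.93 times in crispants. *pou3f3b* had 3.05, 2.43 and 2.76 times the counts of *pou3f3a* in mock control embryos and 2.48, 1.98 and 2.47 times in crispants. Both pairs kept the b copy above the a copy in all 6 libraries, and the groups overlapped. The ratio of the chromosome 19 *pou2f2a* to *pou3f1* was 0.424, 0.219 and 0.358 in mock control embryos and 0.184, 0.265 and 0.281 in crispants, which also overlapped.

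Class III genes are expressed in the nervous system, so the members were set against neural markers. A list of 17 neuronal genes, among them *elavl3* and *tubb5*, was tested in full and summed to between 1515 and 1761 CPM in mock control embryos and between 1169 and 1316 CPM in crispants. The corresponding sums for 18 neural progenitor genes, among them *sox3* and *sox19a*, were 2427 to 2610 and 1685 to 2119 CPM. None of these markers was at 0 in all libraries. For both sums the crispant and mock control ranges lay apart, and the crispant means were 75.6% and 75.7% of the mock control means. *elavl3* itself overlapped, at 302.0, 243.0 and 45.9 CPM in mock control embryos and 183.2, 130.7 and 199.3 CPM in crispants, with mock control replicate 3 far below the rest as for *pou2f1b*. The median log2 fold change was -0.33 for the neuronal genes, 16 of 17 below 0, and -0.35 for the progenitor genes, 17 of 18 below 0. That of the neuronal genes was -0.54 without mock control replicate 1 and -0.58 without mock control replicate 2. Groups did not overlap, with lower values in crispants, for 3 and 5 of them (17.6% and 27.8%), against 5.44% of all genes tested. Without mock control replicate 3 these counts were 5 and 8 (29.4% and 44.4%), against 15.2% of all genes.

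Divided by the neuronal sum of their own library, 4 of the 5 class III genes had overlapping groups. The difference of mean log2 ratios, crispant minus mock control, was 0.05 for *pou3f2a*, 0.11 for *pou3f2b*, 0.12 for *pou3f3a* and -0.14 for *pou3f3b*. Against the mean log2 level of the neuronal list, in place of its sum, *pou3f3b* differed by -0.23 and its groups were apart, while the other 3 still overlapped. *pou3f1* remained lower in every crispant, with log2 ratios of -3.55, -3.97 and -3.89 against -3.23, -3.45 and -3.22 in mock control embryos, a difference of -0.50. It did so too when divided by the progenitor sum, again with a difference of -0.50.

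The chromosome 19 *pou2f2a* also stayed lower relative to the neuronal sum. Its log2 ratios were -4.46, -5.64 and -4.71 in mock control embryos and -5.99, -5.88 and -5.72 in crispants, a difference of -0.93. Relative to the progenitor sum the difference was -0.92, but mock control replicate 2, at -6.40, then lay below crispant replicate 3, at -6.08. The other class II genes had overlapping groups relative to the neuronal sum. Their differences were 0.60 for *pou2f1b*, -0.20 for the chromosome 16 *pou2f2a* and -0.31 for *pou2f3*. For *pou2f1b*, mock control replicate 3 was at -7.35, against -4.35 and -4.46 in mock control replicates 1 and 2.

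**Figure D4:**
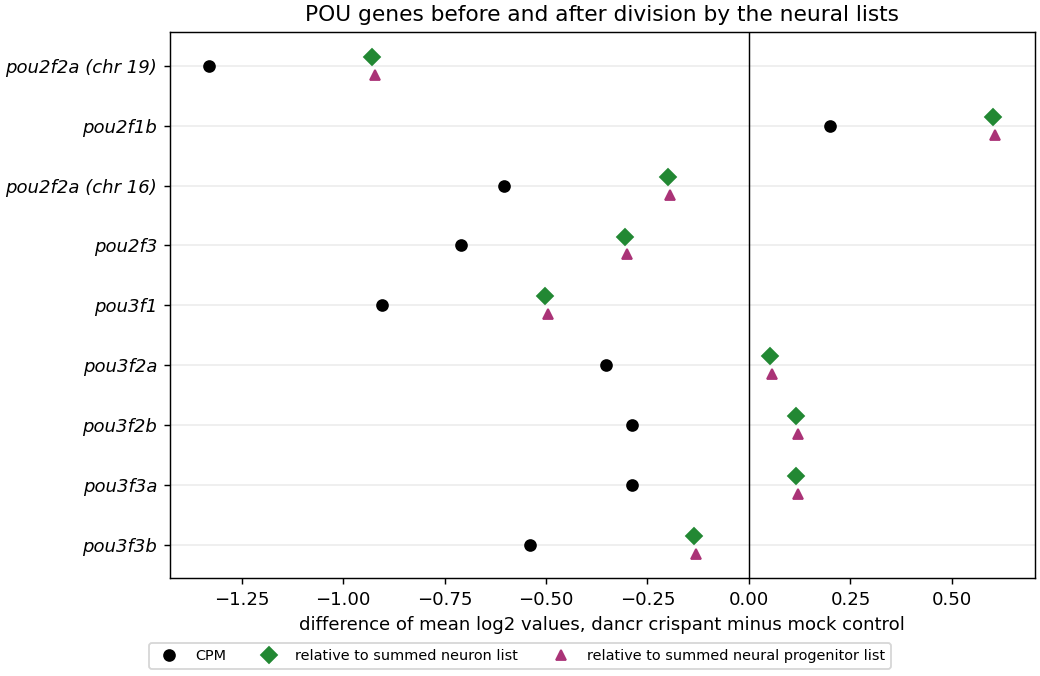
Difference of mean log2 values between crispants and mock control embryos (horizontal axis) for each POU gene, from CPM (circles) and after division by the summed neuronal (diamonds) or neural progenitor (triangles) list of the same library. After division *pou3f2a*, *pou3f2b*, *pou3f3a* and *pou3f3b* lie between -0.14 and 0.12, while *pou3f1* is at -0.50 and the chromosome 19 *pou2f2a* at -0.93 and -0.92. *pou2f1b* is at 0.60 and 0.61, the chromosome 16 *pou2f2a* at -0.20 and -0.19, and *pou2f3* at -0.31 and -0.30.

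POU genes of the other classes had a median log2 fold change of 0.063, which was -0.036 without mock control replicate 2. Of 8 such genes found in the table, including the coactivator gene *POU2AF1*, 6 passed the filter, 0 were called by edgeR or by DESeq2, and 0 had groups apart, against 5.44% of all genes for lower values. *pou6f1*, the most expressed, was at 31.2 ± 8.02 CPM in mock control embryos and 28.1 ± 7.87 CPM in crispants (SD, n = 3 each). *pou4f1*, a factor of sensory neurons, was at 7.03 ± 0.930 and 7.48 ± 1.84 CPM, and *pou5f3*, the pluripotency factor of the early embryo, at 1.81 ± 0.414 and 2.26 ± 0.489 CPM. *POU2AF1*, whose mammalian product joins Pou2f1 and Pou2f2 on the octamer in B cells, had 3 counts in crispant replicate 3 and 0 in the other 5 libraries.

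Because Pou2f2 is known from mammalian B cells, lymphoid markers were listed beside it. Of 10 genes, 6 passed the filter, and the list summed to 13.6 to 20.4 CPM in mock control embryos and 10.7 to 17.2 CPM in crispants. The B cell receptor gene *cd79b* had no count in any library, and *cd79a* averaged 0.0087 CPM in mock control embryos and 0.086 CPM in crispants. *pax5*, which is also expressed in the brain, was the highest of the list at 6.64 ± 1.20 and 6.05 ± 1.63 CPM (SD, n = 3 each).

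The listed SoxB and SoxC factors, which bind DNA with POU proteins in neural cells, were mostly lower in crispants. The SoxC gene *sox12* is not in this list and is given below with the genes most like *pou2f2a*. The median log2 fold change of the list was -0.41 over 12 tested genes, 11 of them below 0, and 0 were called by edgeR or DESeq2. Without mock control replicate 3 the median was -0.20. *sox19a* was at 354.2 ± 71.1 CPM in mock control embryos and 234.7 ± 55.8 CPM in crispants, *sox3* at 302.0 ± 77.0 and 200.4 ± 46.2 CPM, and *sox2* at 96.5 ± 12.5 and 89.0 ± 16.8 CPM (SD, n = 3 each). Groups were apart, and lower in crispants, for 3 of the 12 (25%, against 5.44% of all genes), among them *sox19a* and *sox3*. Both of these also stand in the neural progenitor list. The count among the 12 was also 3 without mock control replicate 3 (25%, against 15.2%).

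Factors and peptides of the hypothalamus, where mouse Pou3f2 acts, had a median log2 fold change of -0.47 over 17 tested genes, 14 of them below 0, and the median was -0.22 without crispant replicate 3. edgeR and DESeq2 called 0 of them, and 5 had groups apart, all lower in crispants (29.4%, against 5.44% of all genes). Without mock control replicate 3 the median was -0.36 over 18 tested genes. Of these, 8 were apart and lower (44.4%, against 15.2% of all genes) and 1 apart and higher. *otpa* and *otpb*, homeobox genes of neuroendocrine and dopaminergic neurons, were at 45.1 ± 14.1 and 36.7 ± 9.70 CPM in mock control embryos and at 21.2 ± 4.26 and 19.8 ± 1.28 CPM in crispants (SD, n = 3 each). *dlx5a*, a forebrain homeobox gene, overlapped at 42.6 ± 15.3 and 30.8 ± 6.53 CPM. The neuroendocrine regulators *sim1a* and *sim1b* and the peptide gene *trh* overlapped as well, with log2 fold changes of 0.016, 0.040 and 0.086. The peptide genes *crhb*, *avp*, *oxt* and *pomca* did not pass the filter on low counts.

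Proneural and neuronal specification factors had 11 of 30 tested genes with groups apart and lower in crispants (36.7%, against 5.44% of all genes), a median of -0.41, and 0 calls by edgeR or DESeq2. *neurod4*, a proneural bHLH gene, was at 87.6 ± 17.2 CPM in mock control embryos and 49.2 ± 3.21 CPM in crispants (SD, n = 3 each). *ebf2* was at 96.3 ± 22.6 and 63.6 ± 2.18 CPM, while *myt1a* overlapped at 134.8 ± 17.1 and 122.5 ± 7.45 CPM. Regional brain and spinal cord genes had 10 of 29 apart and lower (34.5%), with a median of -0.25 and 0 calls. Retina and lens placode factors had 4 of 14 (28.6%), with a median of -0.32 that was -0.21 without crispant replicate 3, and DESeq2 called 1 of them, the eye field gene *rx2*, at 10.8 ± 1.35 and 4.46 ± 1.11 CPM (SD, n = 3 each; log2 fold change -1.28), which edgeR did not call. Without mock control replicate 3 these lists had 16, 13 and 6 genes apart and lower (53.3%, 44.8% and 42.9%), against 15.2% of all genes in the same libraries. Some genes stand in more than 1 list, so the counts of the lists are not independent. For example, *neurod1* and *isl1* are counted here and among the neuronal genes, and *pax6a* in both the regional and the retina list.

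Glial genes, among which mouse Pou3f1 acts, had 5 of 8 tested genes with a log2 fold change below 0. Of the 8, 1 was apart and lower (12.5%, against 5.44% of all genes). It was *plp1a*, a myelin proteolipid gene, at 232.5 ± 35.8 CPM in mock control embryos and 120.0 ± 27.9 CPM in crispants (SD, n = 3 each). The neural crest gene *sox10* was the 1 gene apart in the other direction, at 24.5 ± 5.07 and 32.3 ± 1.54 CPM, against 6.5% of all genes. *mbpa* and *foxd3*, also listed, had no count in any library, and whether their reads were missed in counting is not known. The pronephros list, chosen because mouse Pou3f3 acts in the kidney, had a median of 0.015 over 22 genes. Of these, 4 were apart and lower (18.2%, against 5.44% of all genes) and 3 apart and higher (against 6.5% of all genes). Partners of Pou2f1 at snRNA and histone gene promoters, listed with general RNA polymerase III factors, had a median of 0.0079 over 17 genes. This median ran from -0.057 to 0.13 with each library left out, and *npat* was at 57.6 ± 9.80 and 55.5 ± 2.56 CPM (SD, n = 3 each). Of the 17, 0 were apart and lower and 1 apart and higher, against 5.44% and 6.5% of all genes. edgeR and DESeq2 called 0 genes of these 3 lists.

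The genes whose pattern over the 6 libraries was most like that of the chromosome 19 *pou2f2a* were found by the root mean square difference of log2 CPM, each gene centred on its own mean. The 8 nearest, among genes with at least 50 counts on average, were *itgb1b.2* (0.22), *si:ch73-366l1.5* (0.23), *sox12* (0.24), *cx23* (0.25), *ckmt2b* (0.26), *zgc:195001* (0.27), *enpp6* (0.28) and *adamtsl7* (0.28). They hold an integrin gene, a SoxC gene, a connexin gene and a mitochondrial creatine kinase gene of muscle. *sox12* was at 18.6, 6.70 and 17.2 CPM in mock control embryos and at 5.18, 3.85 and 8.32 CPM in crispants, and *ckmt2b* was at 11.4, 4.197 and 12.1 CPM and at 3.17, 3.45 and 2.60 CPM. Like *pou2f2a*, all 8 were high in mock control replicates 1 and 3 and lower in replicate 2 and the crispants. This follows from how they were picked and is no separate result. Among the POU genes *pou3f1* was nearest, at 0.40 and in place 70 of 17041 genes, and *pou2f1b* was farthest, at 1.38. Without mock control replicate 3, 0 of the 8 genes stayed among the nearest 8, although all 8 lay within the nearest 54.

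**Figure D5:**
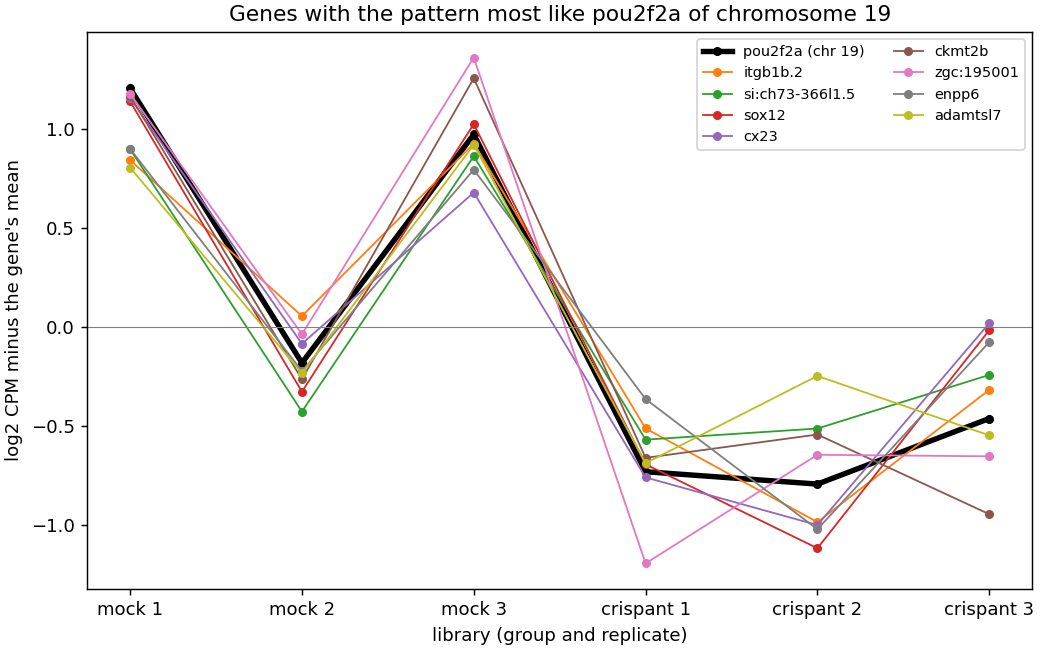
Log2 CPM minus the mean of each gene (vertical axis) in the 6 libraries for the chromosome 19 *pou2f2a* (thick line) and its 8 nearest genes; lines only join the points of a gene. All are high in mock control replicates 1 and 3, with *pou2f2a* at 1.20 and 0.97, and lower in the other 4 libraries.

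Markers of fast skeletal muscle followed a related order over the libraries. The 11 genes of that list, all tested and none at 0, summed to 26582, 18037 and 38873 CPM in mock control replicates 1, 2 and 3 and to 16280, 18156 and 17536 CPM in crispants. Primitive erythroid genes summed to 2344, 1617 and 7653 CPM and to 1161, 1240 and 2319 CPM. In both lists mock control replicate 2 lay within the crispant range, as it lay nearest to the crispants for the chromosome 19 *pou2f2a*. Epidermal genes overlapped, at 19220 to 38670 and 21590 to 26970 CPM. The part of these tissues in the difference of *pou2f2a* was not tested.

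The nearest genes on either side of the chromosome 19 *pou2f2a* had overlapping groups. On chromosome 19, *erf*, 20231 bases to the left of *pou2f2a*, was at 62.7 ± 11.1 CPM in mock control embryos and 67.6 ± 6.99 CPM in crispants, and *atp1a3a*, 25134 bases to the right, was at 82.2 ± 12.7 and 73.5 ± 5.67 CPM (SD, n = 3 each). To the right of *pou3f1* lies *utp11l*, at 22.3 ± 8.80 and 23.25 ± 1.19 CPM, which overlapped too. *pou3f3b* is overlapped by an antisense gene, *si:ch73-30b17.2*, at 2.05 ± 0.609 and 1.55 ± 0.366 CPM. The libraries were strand-specific but the counting is not stated to use strand. Whether any reads were shared or lost between it and *pou3f3b*, at 132.8 CPM or more on average, is therefore not known. Reads that fit both copies of a paralogous pair could be lost or shared in counting.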

How the data were processed

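PolyA selected, strand-specific libraries of 6 whole-embryo samples (3 mock control, 3 *dancr* crispant) were aligned by the authors' sequencing provider to GRCz10 with HISAT2. The counting tool and versions are not given in the sources used here. The authors deposited raw counts per gene for each library, and FPKM values scaled by gene length and by size factors. Columns of their own DESeq2 comparison (a normalised signal averaged per group, a log2 fold change, a p-value and its adjusted form) were deposited too and not used. Every column of a single library was mapped. Gene positions and names are those of the deposited table, and 26121 of 31953 identifiers matched a table of gene names; 4 of the 9 POU identifiers carry another symbol there. RefSeq names (assembly GRCz12tu) were used for synonyms only.

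Counts were scaled by TMM and fitted with edgeR 4.0.16 (glmQLFit, glmQLFTest) in R 4.3.3 with no covariate, after filterByExpr with its minimum count of 10, which left 20812 genes. Adjustment was by Benjamini-Hochberg over all of them. Standard errors come from the fold change and the F statistic. DESeq2 1.42.0 on all genes with a count and limma-voom (limma 3.58.1) were alternatives, beside RLE scaling within edgeR, the unfiltered table, a mean of at least 10 counts, other thresholds, the replicate number as a block, and each library left out. The fits were tested on simulated counts. Log2 CPM for the likeness of patterns used a prior count of 2. The replicates are given as biological, and p-values cover the spread between these libraries.

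The POU genes, the 15 gene lists (253 entries, from general knowledge) and the tests were chosen with earlier results of these data known. Named were all 9 POU genes, the 8 genes most like *pou2f2a*, and *SNORA26*. Called list members, up to 4 of the most expressed of each list, and neighbours were named too. *POU2AF1*, *cd79a*, *cd79b*, *otpb*, *SNORA27*, *mbpa*, *foxd3*, *neurod1* and *isl1* were named after their values were seen. So were *sim1a*, *sim1b*, *trh*, *crhb*, *avp*, *oxt* and *pomca*.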

Additional observations from a re-analysis of the deposited data

How the results depend on the processing

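The count of genes called by edgeR, 0 with all 6 libraries, was 2 without a filter on low counts, 2 at an adjusted p of at most 0.1, and 164 with DESeq2. It ranged from 0 to 20 with each library left out, being 1 without mock control replicate 1 and 20 without mock control replicate 3, and none of these 20 is a POU gene described here. With the replicate number as a block it was 0, and the log2 fold change of the chromosome 19 *pou2f2a* was -1.33. Same-numbered libraries did not deviate together (correlations of 0.23, -0.06 and -0.12), and not every library correlated best with its own number.

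All 108 alternative log2 fold changes of the 9 POU genes lay within 1 SD between replicates of the value with all libraries. With 3 libraries per group, leaving out 1 can hardly move a value further, so this limit is no test of stability. The fold change of *pou2f1b* was above 0 with limma-voom (0.14), with the block (0.12) and without mock control replicate 1 (0.22). Groups were apart, lower in crispants, for 3 to 7 of the 9 genes with each library left out, against 8.21% to 15.2% of all genes in the same sets. Of the lists, the median moved beyond its spread without mock control replicate 3 for pronephros (-0.16), lymphoid (-0.20, from -0.54) and erythroid genes (-0.45, from -1.37). Of the 8 genes most like *pou2f2a*, 5 stayed on the log2(FPKM + 1) scale. The alternatives that leave out libraries for the count of groups apart were added after seeing the data. The cause of these moves was not tested. For *pou2f3* and the chromosome 16 *pou2f2a*, with 55 to 271 counts per library, the standard errors were 0.43 and 0.47. That of *pou2f1b*, with 308 to 3092 counts per library, was larger, at 0.60. The part of depth in this precision was not tested.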

Other observations

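Further features of the family carry names outside the pou2f and pou3f pattern. *CABZ01080370.1* (ENSDARG00000102550), on chromosome 15, is described in the deposited table by its likeness to mammalian POU2F1. It was at 41.4, 31.2 and 25.4 CPM in mock control embryos and at 32.2, 30.6 and 22.0 CPM in crispants, and the groups overlapped (log2 fold change -0.21, standard error 0.26). Unlike *pou2f1b*, it was not far from the other libraries in mock control replicate 3. *zgc:158291*, which RefSeq lists as a synonym of *pou4f4*, was at 10.1, 11.2 and 9.56 CPM and at 6.89, 12.2 and 9.92 CPM, a log2 fold change of -0.08 (standard error 0.29). Both are shown with the other POU genes in the plot of fold changes, and edgeR called neither.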
